A study of Rattus norvegicus with 6 samples.

Results

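Contractile genes of smooth muscle and of myofibroblasts were examined in lung RNA of Lewis rats, an inbred strain, measured on 1-colour short-oligonucleotide arrays with 1 array per animal. The genes were the 10 members Acta2, Tagln, Myh11, Cnn1, Des, Actg2, Lmod1, Myl9, Mylk and Cald1, out of 14217 named genes on the array, and each was followed through every probe set (a group of short probes read as 1 value) that the platform annotation gives to that gene alone. This gave 14 probe sets out of 31042. The silica group held 3 Lewis rats that breathed silica dust as an aerosol at 6.2 mg/m3 for 6 weeks, on 5 days each week and 6 hours each day. Controls were 3 Lewis rats given filtered air under similar conditions. No transgene or other treatment is named for any of the 6 animals, and the sources used here give neither their age nor the time from the last exposure to collection.

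Smooth muscle contracts when calcium and calmodulin activate myosin light chain kinase, which phosphorylates the regulatory light chain of myosin so that myosin can pull on actin filaments. In the lung this machinery lies in airway walls, pulmonary vessels and, in part, pericytes, and fibroblasts that turn into myofibroblasts take up some of it, with smooth muscle alpha-actin (Acta2) as their standard marker. Most of these genes are classic targets of serum response factor (SRF) and its muscle cofactor myocardin, which act through a promoter element called the CArG box. Silicosis is a nodular lung fibrosis, so these genes bear on whether contractile cells had accumulated in the exposed lungs. In whole-lung RNA, a change in the number of such cells and a change in RNA per cell cannot be told apart.

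None of the 10 genes passed the test, and the signal of Acta2 was close to equal in both groups. Of the 14 probe sets, 0 had a limma adjusted p under 0.05, against 1.08% of all probe sets compared (335 of 31042, 290 of them higher and 45 lower in silica). At an unadjusted p under 0.05 there were 2 of 14 (14.3%), both of Cald1 and both lower in silica, where 17.3% of all probe sets passed and 7.94% passed with a lower value in silica. The brightest probe sets of the 10 genes had a median log2 fold change (silica minus control, on log2(signal + 16)) of -0.12, and 6 were below 0 and 4 above. Over all named genes the median was 0.02, and 46.3% were below 0. The median size of the change, without its sign, was 0.12 for the 10 genes and 0.18 for all named genes. It was 0.16 for the 10427 named genes at least as bright as the dimmest of the 10. The 95% interval lay within a 2-fold change either way for all 10 brightest probe sets, and within 1.5-fold for 9 of them, Actg2 being the exception with an upper bound of 1.502-fold.

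The promoters of Acta2, the standard marker, and of Cald1, the member with the lowest log2 fold change, are shown with the stretches nearest to the CArG box, the element these genes are known for. The RefSeq table (GRCr8) held a window of 250 bases before to 50 after the start for 6 of the 10 members, 7 windows in all because Cald1 has a pair of starts. The full CArG box was in 0 of the 7 windows and in 1.64% of all 33469 windows of this length. With 1 substitution allowed in its 10 letters it was in 2 of 7 windows and in 21.3% of all. The element reads the same way on both strands. Capitals mark the stretches 1 substitution away from it. In the Acta2 window (chr1:241172454-241172753, minus strand) they begin 134 and 84 bases before the start, and in the Cald1 window shown (chr4:64233006-64233305, plus strand) 245 bases before it. The window of the other Cald1 start held 0 such stretches and is not shown.
Acta2: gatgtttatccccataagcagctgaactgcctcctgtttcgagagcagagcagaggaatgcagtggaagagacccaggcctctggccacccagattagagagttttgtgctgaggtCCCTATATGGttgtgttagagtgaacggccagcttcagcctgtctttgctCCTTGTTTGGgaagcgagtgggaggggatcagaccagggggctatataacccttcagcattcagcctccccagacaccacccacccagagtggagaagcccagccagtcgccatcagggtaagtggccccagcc
Cald1: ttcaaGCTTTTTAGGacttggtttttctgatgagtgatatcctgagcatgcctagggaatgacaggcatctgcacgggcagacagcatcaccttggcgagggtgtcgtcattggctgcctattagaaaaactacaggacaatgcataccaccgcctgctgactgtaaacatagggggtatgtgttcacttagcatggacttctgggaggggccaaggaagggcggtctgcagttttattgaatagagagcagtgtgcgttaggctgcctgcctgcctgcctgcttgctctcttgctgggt
A match is a description of these letters and not a measured binding site, and no binding was measured in these lungs.

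Acta2, the actin isoform of smooth muscle and the usual marker of myofibroblasts, read 398.8, 394.6 and 481.5 in the controls and 427.4, 470.6 and 425.2 in the silica lungs. The silica arrays all lay inside the control range. The log2 fold change was 0.06 ± 0.12 (SE, limma adjusted p = 0.846), with a 95% interval from 0.852-fold to 1.27-fold. Actg2, the gamma-actin of enteric and some other smooth muscle, read 367.4, 294.1 and 541.2 in control and 344.5, 412.8 and 436.6 in silica. Here the controls themselves spread 1.80-fold on the log2(signal + 16) scale, the widest range within a group among the 10 brightest probe sets, and enclosed all silica values. Its log2 fold change of 0.03 ± 0.23 (adjusted p = 0.968) carries the widest interval of the 10 brightest probe sets, from 0.69-fold to 1.502-fold.

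The annotation gives 5 further probe sets to Acta2 together with Actc1, the actin of heart muscle, and they were kept out of the member counts. They varied more between arrays than the probe set of Acta2 alone. The latter was also lowest in control replicate 2, by a small margin (394.6, against 398.8 in control replicate 1). The brightest of the 5 shared probe sets read 1058.8, 305.9 and 1261.5 in control and 776.9, 438.6 and 638.2 in silica. Its lowest value was in control replicate 2. The summed signal of 11 measured cardiac muscle genes (of 12 listed, none of them at the lowest listed value on every array) was lowest on the same array, at 593.5, against 4897.9 and 4448.5 in the other controls and 3959.2, 1276.3 and 2218.5 in silica. The brightest shared probe set and the cardiac sum fell in nearly the same order over the 6 arrays. The part of heart muscle RNA in the shared probe sets was not tested. None of the 5 passed, with log2 fold changes from -0.52 to 0.12 and adjusted p from 0.621 to 0.988.

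**Figure D1:**
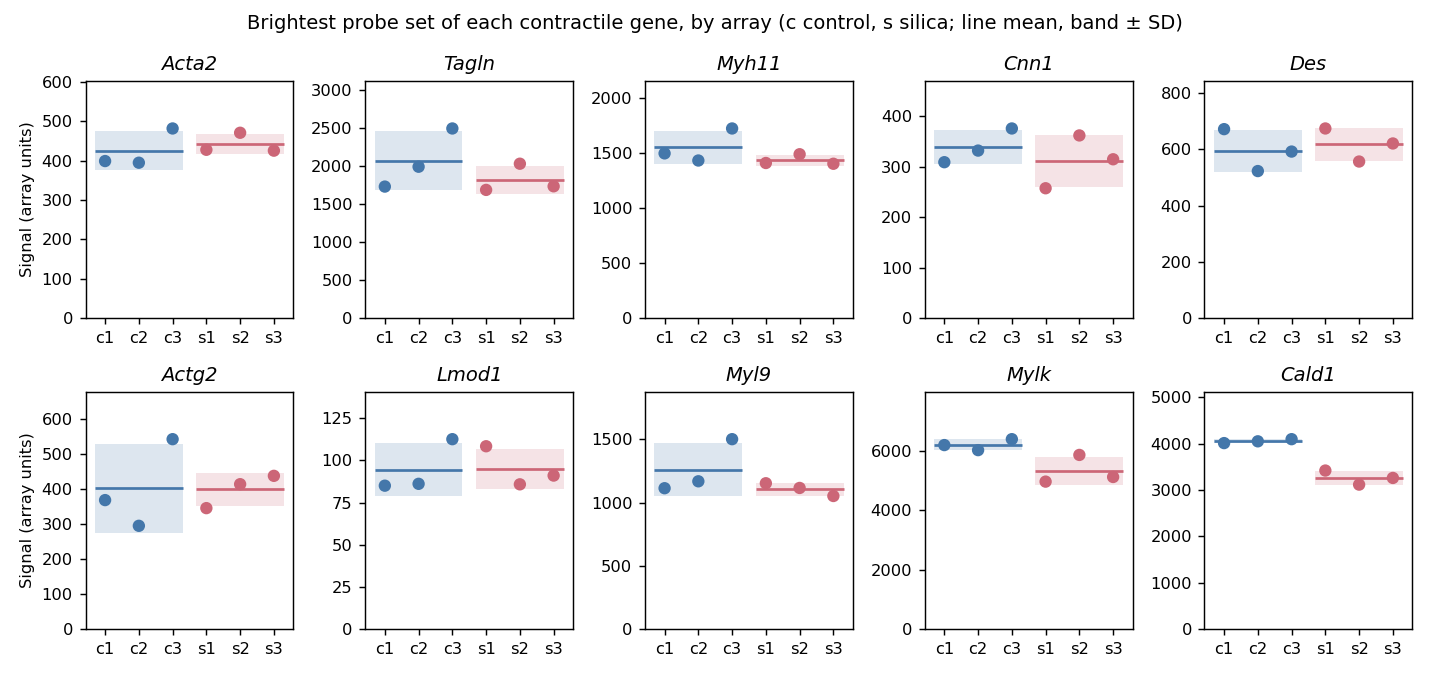
Signal of the brightest probe set of each of the 10 contractile genes (y axis, array units from 0) on each of the 6 arrays (x axis, c1 to c3 control, s1 to s3 silica). Lines are group means and bands 1 SD (n = 3 animals per group). The groups overlap in 8 genes, and only Mylk and Cald1 have all silica points below all control points.

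The myosin genes also lay close together in both groups. Myh11, the smooth muscle myosin heavy chain and the most specific marker of mature smooth muscle among these genes, read 1498.1, 1433.3 and 1724.5 in control and 1410.7, 1490.3 and 1403.7 in silica. Control replicate 3 stood above the rest, and the other 2 controls were mixed with the silica arrays. The log2 fold change was -0.11 ± 0.11 (adjusted p = 0.659), an interval from 0.771-fold to 1.12-fold. A dim further Myh11 probe set had 47.9 in control replicate 3 and between 5.3 and 13.3 on the other arrays (log2 fold change -0.38 ± 0.41). Myl9, the regulatory light chain that the kinase phosphorylates, read 1114.0, 1168.7 and 1502.3 in control and 1153.3, 1116.1 and 1052.4 in silica. Again control replicate 3 alone exceeded all others by a wide margin. The log2 fold change of Myl9 was -0.17 ± 0.14 (adjusted p = 0.573).

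Mylk, the myosin light chain kinase gene, was 1 of the genes whose groups did not overlap. Its brightest probe set read 6189.2, 6019.2 and 6388.1 in control and 4958.9, 5857.5 and 5115.1 in silica. The gap between the lowest control and the highest silica array was small, and silica replicate 2 lay nearer to the controls than to the other silica lungs. The log2 fold change was -0.23 ± 0.11 (adjusted p = 0.340), that is 0.855-fold with an interval from 0.715 to 1.02. Its dimmer probe set had overlapping groups, 53.5 to 90.4 in control and 38.8 to 79.9 in silica (log2 fold change -0.34 ± 0.26).

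Cald1, which encodes caldesmon, an actin-binding brake on myosin found in smooth muscle and, as a shorter form, in most other cells, had the lowest log2 fold change among the brightest probe sets. It read 4010.7, 4049.1 and 4095.5 in control and 3418.3, 3114.6 and 3258.6 in silica. The 3 controls differed by little, and every silica array was lower. The log2 fold change was -0.31 ± 0.09 (adjusted p = 0.179), that is 0.806-fold with an interval from 0.69 to 0.941. A further Cald1 probe set read 1516.3, 1670.5 and 1625.9 in control and 849.0, 1479.8 and 1106.8 in silica, a log2 fold change of -0.52 ± 0.21 with an adjusted p of 0.276. It too had separate groups, with a wide spread among the silica lungs. The third, with signals of 1.4 to 31.6, was too dim to place. The sources used here do not say which Cald1 transcripts each probe set reads.

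Cald1 passed in 2 of the alternatives. With the dimmer 50% of probe sets left out the adjusted p was 0.0459, and with an intensity trend and robust spread 0.0206, while over all alternatives it ran from 0.0206 to 0.481. Its log2 fold change stayed between -0.45 and -0.28 in all of them. Over the 14 probe sets, 3 (21.4%) had groups that did not overlap, the brightest of Mylk and a pair of Cald1, against 25.6% of all probe sets, and all 3 were lower in silica, as were 12.2% of all probe sets.

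**Figure D2:**
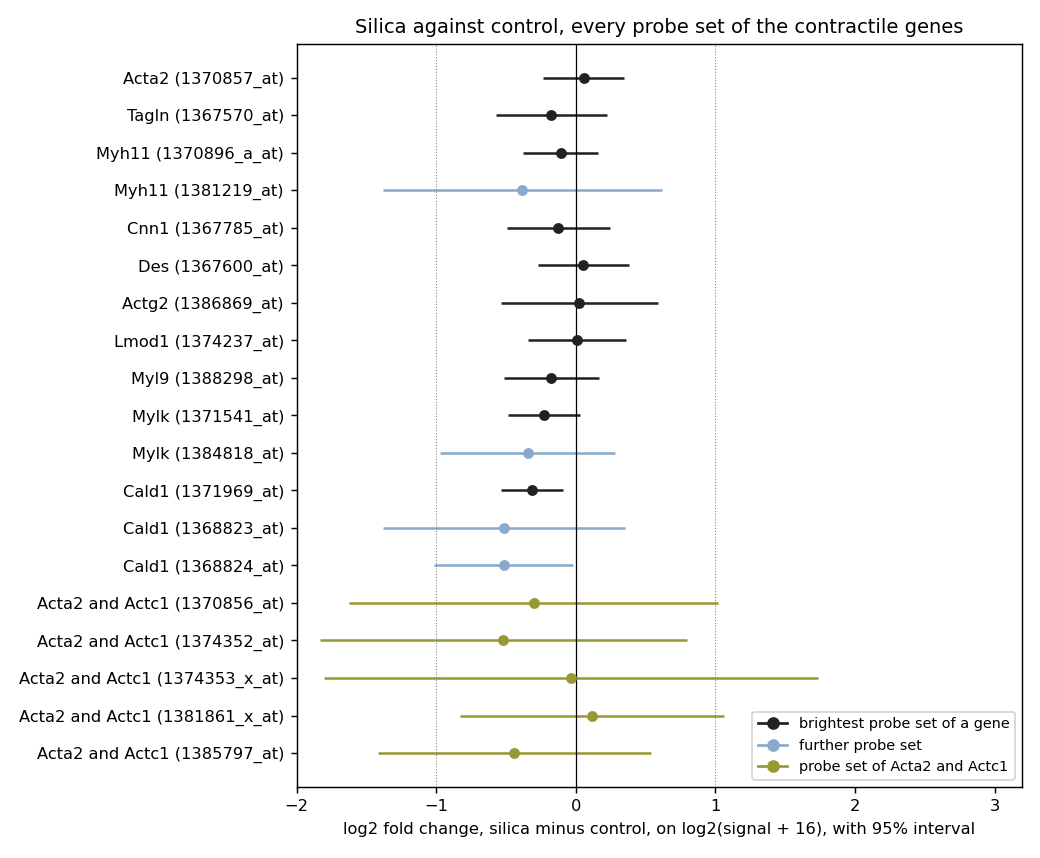
Log2 fold change, silica minus control, on log2(signal + 16) (x axis), with its 95% interval from limma, for the 14 probe sets of the 10 genes and the 5 probe sets annotated to both Acta2 and Actc1 (y axis, names with array identifiers). Dotted lines mark a 2-fold change. The intervals of both brighter Cald1 probe sets lie below 0, and the shared actin probe sets have wide ones.

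Among the actin-binding regulators, Tagln (transgelin, or SM22-alpha, an early marker of smooth muscle differentiation) read 1730.0, 1991.0 and 2493.9 in control and 1686.5, 2030.7 and 1734.0 in silica. The spread among the controls exceeded the group difference, and the log2 fold change was -0.18 ± 0.16 (adjusted p = 0.627). Cnn1, calponin, which inhibits the myosin ATPase in mature smooth muscle, read 309.0, 332.0 and 375.8 in control and 257.4, 362.0 and 314.8 in silica. Silica replicate 1 held the lowest Cnn1 value and silica replicate 2 the second highest, so the silica range covered most of the control range (log2 fold change -0.12 ± 0.15, adjusted p = 0.718). Lmod1, leiomodin, which nucleates actin filaments in smooth muscle, read 85.0, 86.1 and 112.6 in control and 108.4, 85.8 and 91.0 in silica. The groups were interleaved, with a log2 fold change of 0.01 ± 0.14 (adjusted p = 0.980).

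Des, the intermediate filament desmin, is shared by smooth, heart and skeletal muscle. It read 672.0, 523.0 and 592.3 in control and 674.4, 556.9 and 621.1 in silica, and the log2 fold change was 0.05 ± 0.13 (adjusted p = 0.874). Des was the 1 member without its highest value in control replicate 3. Its high arrays were control replicate 1 and silica replicate 1, and its low ones the replicates numbered 2. Those high arrays also held the highest summed signal of 9 measured skeletal muscle genes (of 10 listed), at 7110.2 and 12562.6. The other controls had 3651.2 and 3748.6 and the other silica arrays 3252.6 and 3391.1. Most of these lower sums came from Myh1, named after its values were seen, which was near equal on all arrays. It read 2775.6 to 3141.7 in control and 2816.8 to 3078.7 in silica. Each of the other skeletal genes in the sum was highest on silica replicate 1 and next highest on control replicate 1. The sums thus understate the contrast between arrays in those other genes. The low Des arrays were the 2 lowest for the cardiac genes. The part of other striated muscle in the Des signal was not tested.

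Control replicate 3 held the highest value of 9 of the 10 brightest probe sets, all but Des. Averaged over the 10 genes after centring each on its own mean, it stood at 0.23 on the log2 scale. The other controls were at -0.02 and -0.06, and the silica arrays at -0.08, -0.01 and -0.06, so the remaining 5 arrays lay within a narrow band. Lists of other genes, described below, shared the high value of control replicate 3 in part. Its centred mean was 0.19 for further structural genes, 0.21 for fibroblast, 0.19 for pericyte and 0.30 for airway epithelial genes. It was 0.04 for the regulators, 0.05 for endothelial, 0.04 for alveolar epithelial and -0.37 for leukocyte genes. In 8 of the 10 genes the range among the 3 controls exceeded the difference between the groups. Without control replicate 3 the median log2 fold change of the members was -0.03, and without both control replicate 3 and silica replicate 1 it was 0.00. The mean log2 ratio of 3-prime to 5-prime signal of beta-actin and GAPDH, a measure of RNA and labelling quality that grows as transcripts lose their 5-prime end, was lowest on control replicate 3 as well (1.00, against 1.20 and 1.23 in the other controls and 1.15 to 1.67 in silica). With this ratio as a covariate the median of the members was -0.02, and limma called 0 probe sets of the whole table (3184 at an unadjusted p under 0.05).

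Described against the mean of the other 9 genes over the 6 arrays, Myh11 followed it most closely (Pearson r = 0.98), then Myl9 (0.89) and Tagln (0.83). Des ran apart from it (-0.25) and Cald1 followed it weakly (0.31). These 6 points are the same arrays for every gene, and control replicate 3 lies farthest from the rest. Among 11287 other genes with a mean log2 signal of at least 6, the 8 most like the mean of the members were Tmem204, Stag1, Crabp1, Col14a1, Mfsd9, Svil, Ampd3 and Mfap2 (r from 0.96 to 0.999). Each of them was highest on control replicate 3, which follows from choosing them by likeness to a mean that peaks there. Tmem204, for example, read 1837.8, 1737.6 and 2478.9 in control and 1694.1, 1868.7 and 1735.4 in silica. Svil, the actin-binding supervillin, read 2092.2, 2115.4 and 2685.8 in control against 2070.0 to 2174.0 in silica, and Col14a1, a fibril-associated collagen, 481.9, 454.0 and 725.9 against 460.8 to 517.5.

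**Figure D3:**
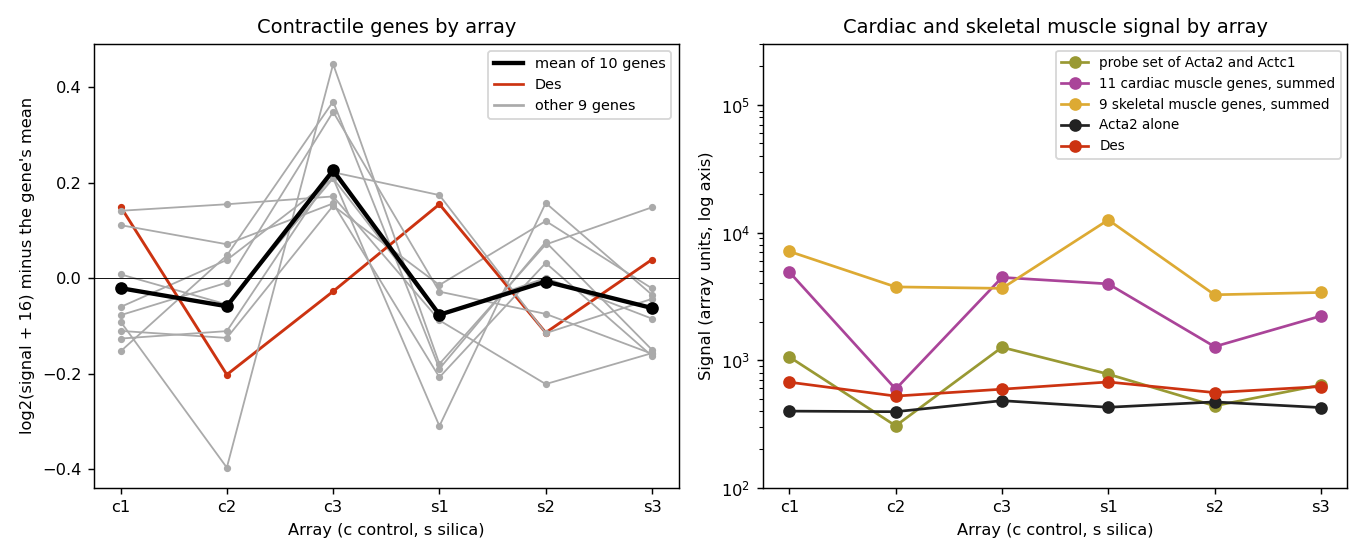
Left, log2(signal + 16) of the 10 genes on each array (x axis) minus the gene's own mean, with their mean in black; it reaches 0.23 on control replicate 3. Right, signal on a log axis of Acta2 alone, of Des, of the brightest probe set annotated to both Acta2 and Actc1, and the summed signal of the cardiac and skeletal muscle genes. The shared probe set is lowest on control replicate 2, as are the cardiac sum, Des and, by a small margin, Acta2 alone. Lines join the arrays for reading only, since replicates have no order.

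Genes that control this programme passed in 0 of 14 cases (of 16 listed). Mrtfb and Prkg1 were not measured by a probe set of their own. At an unadjusted p under 0.05, where 17.3% of all probe sets passed, limma gave 1 of the 14. That gene was Mrtfa, the actin-sensing cofactor of SRF, which read 458.5, 436.9 and 440.6 in control and 550.9, 600.6 and 577.7 in silica. Its groups were well apart, in the direction opposite to most members, at 0.36 ± 0.09 on the log2 scale (adjusted p = 0.144, and 0.0307 with the dimmer 50% left out). Srf itself was near equal, 1095.4 to 1156.3 in control and 1099.5 to 1200.9 in silica (0.03 ± 0.09). Myocd, the muscle cofactor, was dim, 39.4 to 58.8 and 20.2 to 60.3 (-0.36 ± 0.29). Of the kinase and phosphatase side, Rock1 had -0.11 ± 0.20, Rock2 -0.13 ± 0.09, the phosphatase targeting subunit Ppp1r12a 0.08 ± 0.13 and its inhibitor Ppp1r14a -0.13 ± 0.13. Csrp2, a smooth muscle LIM protein gene, had -0.45 ± 0.19 and the integrin gene Itga8 -0.27 ± 0.13, each with all silica arrays below the controls and neither past the test (adjusted p = 0.290 and 0.335). The median over the 14 was -0.12, with -0.05 without control replicate 3 and -0.03 with the RNA quality covariate.

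Of 19 further structural genes of smooth muscle (of 22 listed), 0 passed. At an unadjusted p under 0.05, where 17.3% of all probe sets passed (7.94% lower in silica), limma gave 1 higher and 5 lower. The higher one was Pdlim7, an actin-associated LIM protein gene, at 375.4, 405.3 and 349.0 in control and 630.8, 662.1 and 555.2 in silica (0.69 ± 0.12 on the log2 scale, adjusted p = 0.0629). It passed in 4 of the alternatives, with pseudocount 64 among them (adjusted p = 0.0219). Nexn, the actin-binding nexilin, read 885.7, 890.2 and 918.3 in control and 540.0, 654.7 and 681.7 in silica (-0.52 ± 0.12, adjusted p = 0.117). Pdlim3, which binds alpha-actinin, had 1435 ± 132 (SD) in control and 998.5 ± 111 in silica (-0.52 ± 0.13, adjusted p = 0.137). Hspb6, a small heat-shock protein gene of muscle, had 819 ± 59.9 and 599 ± 73.8 (-0.45 ± 0.13, adjusted p = 0.172). Nexn, Pdlim3 and Hspb6 passed with the dimmer 50% left out, at adjusted p of 0.0226, 0.0290 and 0.0442. The tropomyosins and smoothelin were closer to 0, Tpm1 at -0.09 ± 0.11, Tpm2 at -0.14 ± 0.14 and Smtn at 0.12 ± 0.14. The median over the 19 genes was -0.14 (-0.22 without control replicate 2), with 15 of them below 0.

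**Figure D4:**
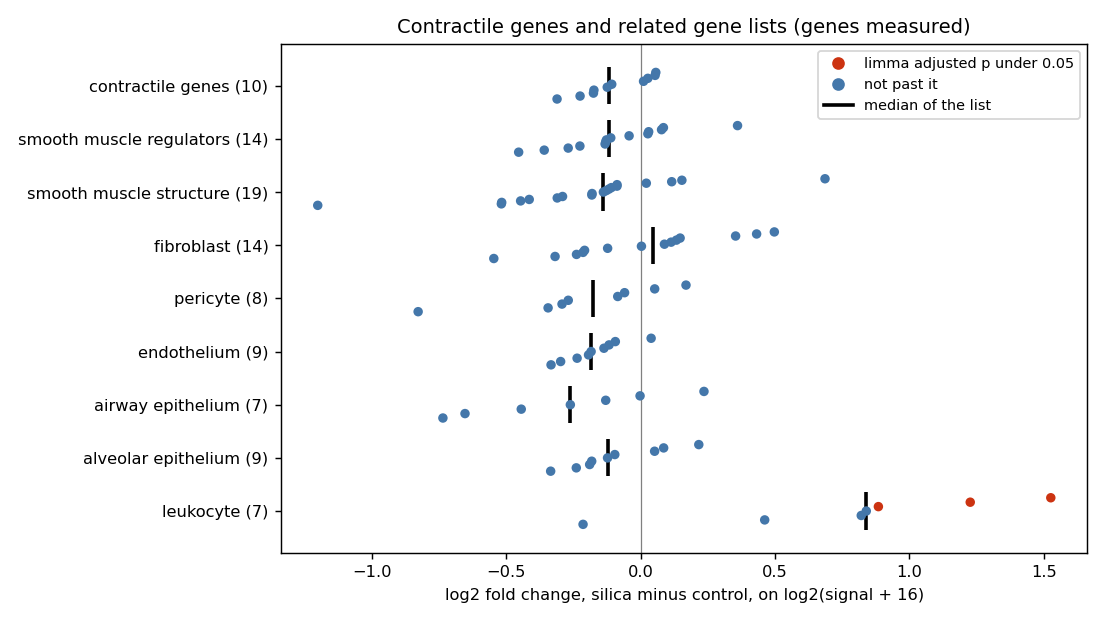
Log2 fold change, silica minus control (x axis), of the brightest probe set of each measured gene in the contractile genes and 8 related lists (y axis, number of genes in brackets), with the list median as a bar. Red points passed at a limma adjusted p under 0.05; they occur only in the leukocyte list among the 9 lists drawn.

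The other cells that hold or border this machinery were read from marker lists. Of 14 fibroblast and myofibroblast genes 0 passed. At an unadjusted p under 0.05, where 17.3% of all probe sets passed, limma gave 3 of these 14 genes. Their median was 0.05, and it lay below 0 when control replicate 2 was left out (-0.13), when either silica replicate 2 or silica replicate 3 was (-0.02 each) and with the dimmer 50% left out (-0.12). Col1a1, a type I collagen chain, had 742 ± 129 in control and 998.6 ± 75.0 in silica (0.43 ± 0.15, adjusted p = 0.225). The other chain, Col1a2, named after its values were seen, was brighter and lay the other way. It had 3331 ± 557 and 3052 ± 467 (-0.12 ± 0.17, adjusted p = 0.752). Postn, periostin, had 7978 ± 524 and 6401 ± 580, a lower silica value (-0.32 ± 0.11, adjusted p = 0.236, and 0.0437 with the intensity trend). Fap, an activated-fibroblast protease gene, was dim in both groups (0.50 ± 0.17), and the fibroblast receptor gene Pdgfra had -0.21 ± 0.10, neither past the test. Thus the fibroblast genes with the smallest p lay on both sides of 0.

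Of 8 pericyte genes 0 passed. At an unadjusted p under 0.05 limma gave 3 of the 8, all lower in silica. Of all probe sets, 17.3% passed at that level and 7.94% passed with a lower value in silica. Rgs5, a pericyte regulator of G-protein signalling, read 232.2, 201.7 and 284.8 in control and 132.7, 110.6 and 138.1 in silica (-0.83 ± 0.16, adjusted p = 0.0806). It passed in 4 alternatives, among them pseudocount 64 (adjusted p = 0.0365). The potassium channel subunit Abcc9 had 638 ± 39.6 and 499 ± 22.0 (-0.34 ± 0.10, adjusted p = 0.172; 0.0434 with the dimmer 50% left out), and its partner Kcnj8 -0.27 ± 0.22. Higd1b had -0.29 ± 0.12 and the PDGF receptor gene Pdgfrb -0.09 ± 0.11. The remaining 3 genes, named after their values were seen, were closer to 0 or lay the other way. Notch3 had 0.17 ± 0.17, Cspg4 0.05 ± 0.16 and Cox4i2 -0.06 ± 0.10, so 2 of the 8 were above 0. The list median was -0.18, and -0.12 when control replicate 2 or 3 was left out.

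The tissue label was checked by 9 measured alveolar epithelial genes (of 10 listed), whose summed signal was 138502 to 145965 in control and 125395 to 144342 in silica, and by 7 airway epithelial genes (of 8), at 39385 to 46877 and 35807 to 40724. None of these 16 genes passed, and their medians were -0.12 (from -0.23 to -0.06 with 1 array left out) and -0.26. The 9 endothelial genes had a median of -0.18 with 0 past the test. Their sums did not overlap, 50005 to 51785 in control and 41973 to 47974 in silica. The same held for the sums of the smooth muscle regulators, the structural genes and the pericyte genes. It also held for the contractile genes themselves, at 16291 to 18308 in control and 14440 to 15497 in silica, with Mylk and Cald1 the brightest in that sum. Of single probe sets, 25.6% of all had groups that did not overlap. Of the 7 measured leukocyte genes (of 8) 3 rose, Itgam (1.53 ± 0.16, adjusted p = 0.0307), Cd3e (1.23 ± 0.15, adjusted p = 0.0361) and Cd68 (0.88 ± 0.12, adjusted p = 0.0431), while Ptprc had 0.46 ± 0.10 (adjusted p = 0.105). Each of the 3 passed in fewer alternatives than not, and 0 leukocyte genes passed with no moderation, the replicate block, pseudocount 1, the RNA quality covariate or any 1 array left out. Lyz2, the lysozyme gene of myeloid cells, named after its values were seen, lay the other way and was the brightest of the 7 (19183.8 to 20790.4 in control and 14942.9 to 21763.1 in silica, -0.21 ± 0.16). The leukocyte list had a median of 0.84 and summed signals, mostly of Lyz2, of 27098 to 28431 in control and 28089 to 36329 in silica, and the part of added leukocyte RNA in the members' values was not tested. Cartilage genes were at the low end of the signal scale (6 measured, sums of 137 to 225 in control and 197 to 219 in silica), and 1 of them, Comp, rose from 37.5 ± 4.27 to 70.7 ± 3.08 (0.70 ± 0.10, adjusted p = 0.0468), but it passed in only 3 of 17 alternatives, with adjusted p from 0.114 to 0.164 when 1 array was left out. Col2a1, the type II collagen chain of cartilage, lay the other way (-0.51 ± 0.17, adjusted p = 0.218). The cardiac and skeletal muscle lists had 0 genes past the test, and no median is given for them because it ran from -1.05 to 0.37 and from -0.81 to 0.57 with 1 array left out.

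Median log2(signal + 16) per array ran from 7.38 to 7.42. Having only 3 arrays a group sets the precision of each value. The smallest two-sided p that an exact permutation test allows here is 0.1. Separate groups always give that value, so it restates the separation of the 3 member probe sets and adds no evidence. Of all probe sets, 25.6% had separate groups. The call counts rested on all 6 arrays, since limma called between 0 and 12 probe sets of the whole table when 1 array was left out (4024 to 5427 at an unadjusted p under 0.05).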

How the data were processed

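Lung RNA of 6 rats was measured on 1 array per animal. Per the labels' protocols, in vitro transcription gave biotin-labelled cRNA. The authors deposited linear signal intensity values, 1 per probe set and array; the sources used here do not name the summarising software. Trimming 2% at each end, the arrays had means near 500.1, so the deposited intensity values were taken as already scaled, by a method not given in the sources used here.

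Of 31099 probe sets, 57 array controls were left out. Platform annotation named 20826 with 1 gene (20758 matched by identifier to RefSeq GRCr8), 436 with several genes and 9780 with none; 14217 genes were named, each led by its brightest probe set. Groups came from the titles. Values were analysed as log2(signal + 16) with limma 3.58.1 in R 4.3.3 (lmFit, eBayes; 4 residual and 2.18 prior degrees of freedom). Group was the only term, and p-values were adjusted by Benjamini-Hochberg over 31042 probe sets, with a threshold of 0.05. P-values measure the spread between these 3 animals a group. Fold changes understate dim genes. The fit was tested on simulated arrays.

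The members and lists were chosen with earlier results of these data known. Named genes were the members, up to 4 with the smallest p in each related list and 15 set ones; the muscle, epithelial and endothelial lists are given as sums. Alternatives covered normalization, pseudocounts of 1 and 64, a filter on dim probe sets, spread models, array weights, RNA quality, the replicate number as a block, left-out arrays, a threshold of 0.01 and averaging a gene's probe sets.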

Additional observations from a re-analysis of the deposited data

How the results depend on the processing

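The count of 0 members past the test held in each alternative except the 2 that gave 1 (Cald1, lower in silica): leaving out the dimmer 50% of probe sets and an intensity trend with robust spread. The median of the members ran from -0.16 to -0.03 with 1 array left out and turned to 0.00 (0.0022) without control replicate 3 and silica replicate 1 together. Over the whole table, 335 probe sets became 1675 with the dimmer 50% left out, 1862 with the intensity trend, 40 with no moderation, 43 and 919 with pseudocounts 1 and 64, 0 with the RNA quality covariate, 0 without control replicate 3 and silica replicate 1, 6 at a threshold of 0.01 and between 0 and 12 with 1 array left out. Where limma called 0, 3184 (RNA quality covariate) to 5427 (without silica replicate 3) probe sets had an unadjusted p under 0.05. The split was 1044 higher and 631 lower with the dimmer 50% left out, and 1141 and 721 with the trend. The replicate block gave 1 probe set in the whole table and 0 members. Same-numbered arrays correlated at 0.09, 0.04 and 0.09 in their deviations from the group means, each array best with its own number, a hint from the data and not from the design, so the numbers were not taken as pairs.

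Log2 fold changes near 0 changed sign. Without control replicate 3 and silica replicate 1, Tagln had 0.016, Cnn1 0.072, Des -0.011, Srf -0.021, Rock1 0.17 and Ppp1r12a -0.021. With the RNA quality covariate, Cnn1 had 0.024, Srf -0.0094, Rock1 0.27 and Smtn -0.0084. With median centring Lmod1 had -2.41e-05. With a gene's probe sets averaged, Ppp1r12a had -0.078 and Tpm2 0.21. With 1 array left out, Actg2 ran from -0.17 to 0.26, Lmod1 from -0.074 to 0.12, Des from -0.035 to 0.14, Rock1 from -0.28 to 0.031, Srf from -0.0049 to 0.058 and Ppp1r12a from -0.019 to 0.17. The causes were not tested.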
